A study of Bos taurus with 11 samples.

Results

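Prostaglandins are lipid signals that the uterine lining makes in large amounts, and 10 genes that make them, break them down or sense them were followed here in the endometrium of dairy cows soon after calving. The genes were PTGS1 and PTGS2, which start the pathway, the synthases PTGES, PTGES3, PTGIS and AKR1B1, the breakdown enzyme HPGD, and the receptors PTGER2, PTGER4 and PTGFR. They were picked by symbol. All 10 were on the array, with 16 probe sets among them, out of 9155 genes with a probe set of a single symbol. Where a gene had several probe sets, the one with the highest mean over all cows stands for it and is called its main probe set, and the others are given beside it.

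Both cyclooxygenases, PTGS1 and PTGS2, turn arachidonic acid, a fatty acid freed from membranes, into an unstable intermediate that is shared by all prostaglandins. PTGS2 is the inducible form, switched on by cytokines and growth signals, and PTGS1 is present in many tissues without such induction. The terminal synthases then make prostaglandin E (PTGES, with PTGES3 as a second enzyme), prostacyclin (PTGIS) or prostaglandin F (AKR1B1, which in bovine endometrium has been described as a prostaglandin F synthase). HPGD inactivates E and F prostaglandins by oxidation. In the cow, prostaglandin F from the endometrium ends the life of the corpus luteum, and both series act on the muscle and the immune cells of the uterus after calving.

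The samples were uterine endometrium of 11 multiparous, black and white Holstein-Friesian cows whose parity averaged 4.7, taken at slaughter 14 ± 0.4 days after calving (error as the labels give it). From day 2 after calving, 6 cows in severe negative energy balance were given 25 kg silage with 4 kg concentrate daily and were milked 3 times a day, and 5 cows in mild negative energy balance had grass silage without limit and 8 kg of concentrate and were milked 1 time a day. Feed and milking frequency differed together, so their parts cannot be told apart. Each cow was measured on 1 Affymetrix bovine array, whose values are RMA signals on the log2 scale, where 1 unit is a factor of 2.

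Values ran between 2.63 and 14.6 over 24128 probe sets, with a median of 6.20 on every array, and arrays correlated with each other at 0.948 to 0.991. A signal below 5.52, which is the 40th percentile of probe-set means, is called dim, since differences are compressed near the floor. RNA quality, read from control probe sets as the signal at the 3' end minus that at the 5' end, was 0.59 ± 0.14 (SD, n = 6) in severe cows, against 0.56 ± 0.07 (SD, n = 5) in mild cows. Most markers of stroma and epithelium were bright. DCN, a matrix proteoglycan, had a mean of 13.60 in severe and 13.44 in mild cows. EPCAM, an epithelial adhesion protein and the brightest of its list, was at 10.33 and 10.34. KRT8, a keratin of the epithelial list, was dim in every cow, at 4.38 and 4.31. The 7 smooth muscle markers were bright too, with a mean level per cow of 11.14 to 12.32 in severe and 11.44 to 12.49 in mild cows, so the samples also held muscle RNA.

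The design asks which transcripts differ between cows in severe and in mild negative energy balance. Among the 10 prostaglandin genes, the largest differences were those of both cyclooxygenases and of the prostaglandin E synthase PTGES, which were higher in severe cows by 2.10, 1.29 and 0.84 log2 units for PTGS2, PTGS1 and PTGES. The prostaglandin F synthase AKR1B1 and the prostacyclin synthase PTGIS differed by -0.02 and 0.01. The breakdown enzyme HPGD was lower by point estimate in both of its probe sets, and the 3 receptors differed by between -0.24 and 0.27. No gene passed the test across the whole array.

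Limma called 0 members at an adjusted p under 0.05, and 0 of 24016 probe sets (0%), the smallest adjusted p on the array being 0.177. Without adjustment, 3085 probe sets (12.8%) had a limma p under 0.05. At that unadjusted limit 3 of 10 members were higher in severe cows, against 8.45% of all genes by main probe set, and 0 of 10 were lower, against 7.46%. By sign alone 6 members were higher, PTGER2 at its dim signal counted among them, and 4 lower, and 48.9% of all genes were higher. The median difference of the 10 genes was 0.09 log2 units, and that of all genes was -0.00378. In 0 of 10 members were the groups free of overlap, which held for 0.754% of all genes with severe cows above and for 0.437% with severe cows below. The array measures RNA of a whole tissue piece, so fewer cells of a type and less RNA per cell cannot be told apart in any of the results that follow.

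**Figure D1:**
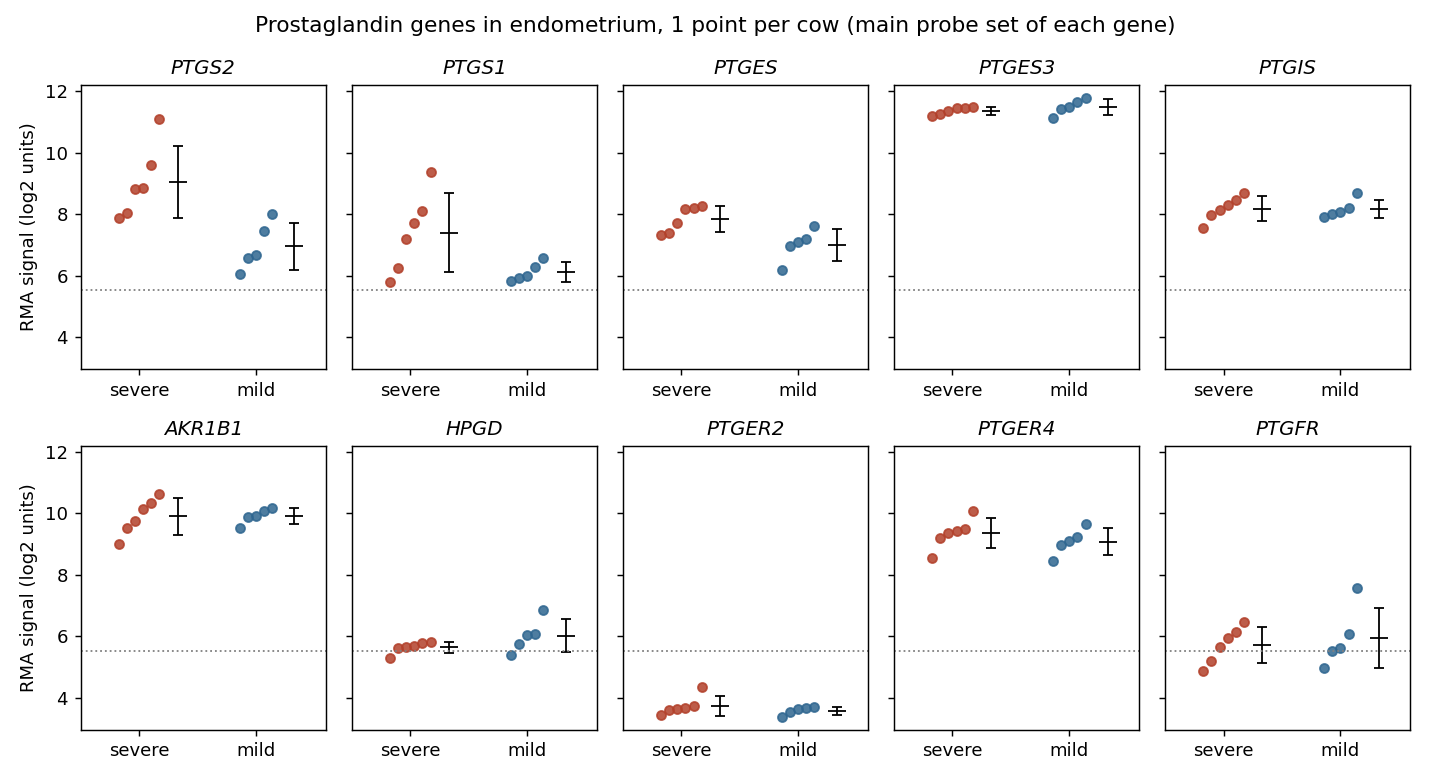
RMA signal in log2 units (vertical axis) of the main probe set of each of the 10 genes, with 1 point per cow for 6 severe cows (red, left) and 5 mild cows (blue, right). The black bar is the mean ± SD, and the dotted line is the dim limit of 5.52. PTGS2 lies at 7.88 to 11.10 in severe cows and 6.04 to 8.00 in mild cows, and PTGER2 lies below the dim limit in every cow.

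PTGS2, the inducible cyclooxygenase, showed the largest difference of the 10 genes. Its main probe set (Entrez gene 282023) lay at a lowest value of 7.88, a median of 8.84 and a highest value of 11.10 in severe cows. The mild cows had 6.66, 6.04, 8.00, 7.46 and 6.59. The 5 highest signals of all 11 cows belonged to severe cows, and the groups met only at mild 3 (8.00) and severe 6 (7.88). The PTGS2 mean was 9.05 ± 1.18 (SD, n = 6) in severe against 6.95 ± 0.78 (SD, n = 5) in mild cows, a 4.28-fold difference with a 95% interval of 1.87 to 9.80. The log2 difference of 2.10 ± 0.55 (SE) had an adjusted limma p of 0.285, which did not pass. In 5 of 6 severe cows the signal lay above every mild cow, and for this gene alone the 462 possible splits of the cows gave an exact permutation p of 0.0108 (two-sided, as are all those below, with 0.0022 the smallest that can be had).

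The spread of PTGS2 between cows was wide within both groups, its SD being at the 99.1 percentile of all genes in severe cows and at the 98.1 percentile in mild cows. Severe 4, at 11.10, held the highest value, and the next severe cow, severe 1, stood at 9.59. Without severe 4 the log2 difference was 1.69, and over all single omissions it ran from there to 2.36, with an unadjusted limma p under 0.05 each time. The other PTGS2 probe sets were dimmer. One of them averaged 5.51 in severe and 4.61 in mild cows, higher by 0.90 ± 0.46 log2 units (SE), and 3 severe and 4 mild cows were dim there. The third probe set lay near the floor in every cow, between 3.23 and 3.54 in severe and 2.98 and 3.48 in mild cows, and its difference of 0.07 is not read as a level.

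PTGS1, the cyclooxygenase that many tissues carry without induction, split the severe cows. In severe cows its main probe set (Entrez gene 282022) had a lowest value of 5.80, a median of 7.44 and a highest value of 9.38. Mild cows had 5.81, 5.91, 5.99, 6.57 and 6.29. Severe 2, 4, 5 and 6, at 7.70, 7.18, 9.38 and 8.09, all lay above the highest mild cow, while severe 1 and severe 3, at 5.80 and 6.25, lay among or below the mild cows. The second PTGS1 probe set put the same 4 cows on top, at 5.39, 4.92, 7.25 and 6.09, against a highest mild value of 4.64, though most of its signals were dim.

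In PTGS1 the SD was 1.30 in severe cows, at the 99.4 percentile of all genes, and 0.31 in mild cows, at the 79.2 percentile. The log2 difference was 1.29 ± 0.53 (SE, adjusted limma p of 0.356), a 2.44-fold difference with a 95% interval of 1.09 to 5.44. Its unadjusted limma p was under 0.05, but the exact permutation p was 0.0584. The difference was 0.89 without severe 5 and 1.61 without severe 1, and its unadjusted limma p was above 0.05 in 5 of the 11 single omissions, those of mild 1, mild 2, mild 3, severe 2 and severe 6. The second probe set differed by 0.92 ± 0.44 (SE), with a limma p above 0.05 before adjustment.

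The order of the severe cows was not the same in both cyclooxygenases. Severe 2, 4 and 5 lay above every mild cow in both. Severe 1 had the lowest PTGS1 signal of all cows, 5.80, and the second highest PTGS2 signal, 9.59. Severe 6 had the second highest PTGS1 signal, 8.09, and the lowest PTGS2 signal of the severe cows, 7.88. With each group's mean removed, both cyclooxygenases had a Pearson r of -0.12 (exact permutation p = 0.786) and a Spearman rho of -0.13 (exact permutation p = 0.736) over the 11 cows. Without severe 1 and severe 5, the cows farthest from the median of PTGS1, r was 0.03.

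**Figure D2:**
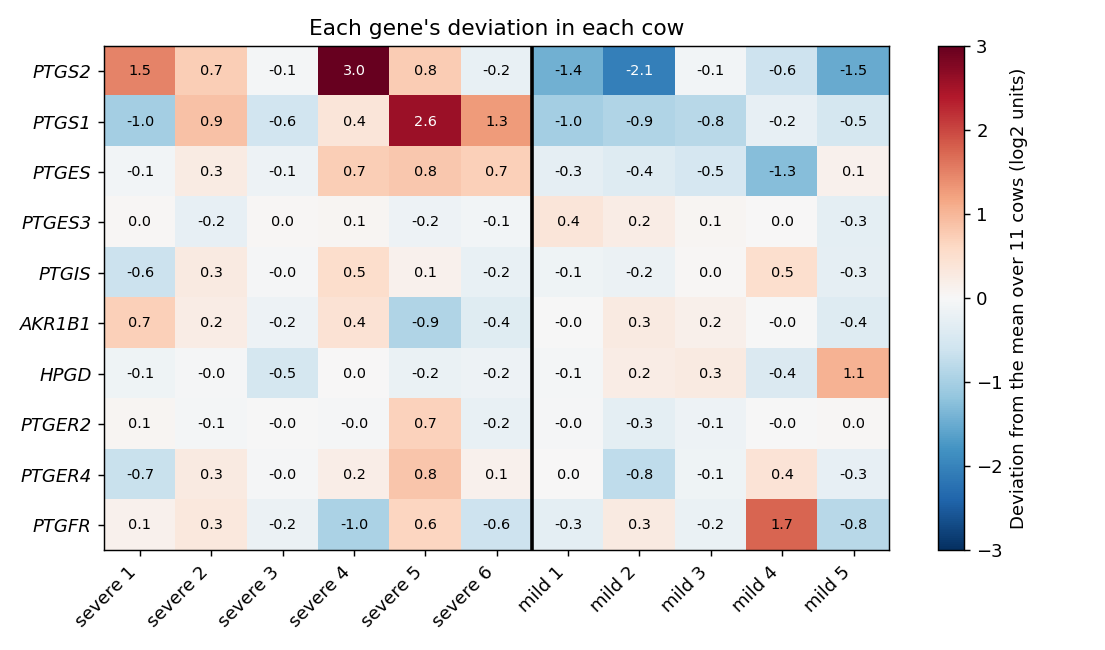
Deviation of each gene (rows) from its own mean over 11 cows, in log2 units (colour and printed value), for 6 severe cows on the left of the black line and 5 mild cows on its right. PTGS2 is highest in severe 4 and PTGS1 in severe 5, and the highest HPGD and PTGFR signals belong to mild 5 and mild 4.

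PTGES, the membrane-bound synthase that works downstream of PTGS2 to form prostaglandin E, was the third gene at the unadjusted limit. Its probe set (Entrez gene 282019) had a lowest value of 7.31, a median of 7.94 and a highest value of 8.27 in severe cows, and values of 7.19, 7.08, 6.97, 6.17 and 7.60 in mild cows. Severe 2, 4, 5 and 6 lay above every mild cow, while severe 1 and severe 3, at 7.39 and 7.31, lay above 4 mild cows but below mild 5. These 4 cows were also the ones with high PTGS1. The PTGES mean was 7.85 ± 0.43 (SD, n = 6) in severe against 7.00 ± 0.52 (SD, n = 5) in mild cows, a 1.80-fold difference with a 95% interval of 1.22 to 2.65. The log2 difference of 0.84 ± 0.26 (SE) had an adjusted limma p of 0.306, and the exact permutation p was 0.0173. Single omissions moved it between 0.64 (without mild 4) and 0.99 (without mild 5).

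PTGES3 (Entrez gene 493638), a cytosolic prostaglandin E synthase that is also a co-chaperone of HSP90, was the brightest of the 10 and nearly level. It ran from 11.19 to 11.48 with a median of 11.40 in severe cows, against 11.79, 11.64, 11.48, 11.43 and 11.12 in mild cows. Its log2 difference was -0.13 ± 0.11 (SE, exact permutation p = 0.297), with a 95% interval of -0.37 to 0.11. All 6 severe cows lay below the mild mean but within the mild range.

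PTGIS (Entrez gene 282021), the prostacyclin synthase, ran from 7.54 to 8.70 with a median of 8.22 in severe cows, against 8.06, 8.00, 8.21, 8.68 and 7.91 in mild cows, so that both groups covered nearly the same range. The difference of 0.01 had a 95% interval of -0.42 to 0.45 log2 units, and its sign changed with which cow was left out. AKR1B1 (Entrez gene 317748), the prostaglandin F synthase, had a lowest value of 9.01, a median of 9.94 and a highest value of 10.64 in severe cows, against 9.91, 10.19, 10.07, 9.89 and 9.54 in mild cows. Its difference of -0.02 had a 95% interval of -0.57 to 0.54, and it turned to 0.16 without severe 5, the cow with the lowest AKR1B1 signal (9.01) and the highest PTGS1 signal. The SD of AKR1B1 was 0.59 in severe and 0.25 in mild cows.

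**Figure D3:**
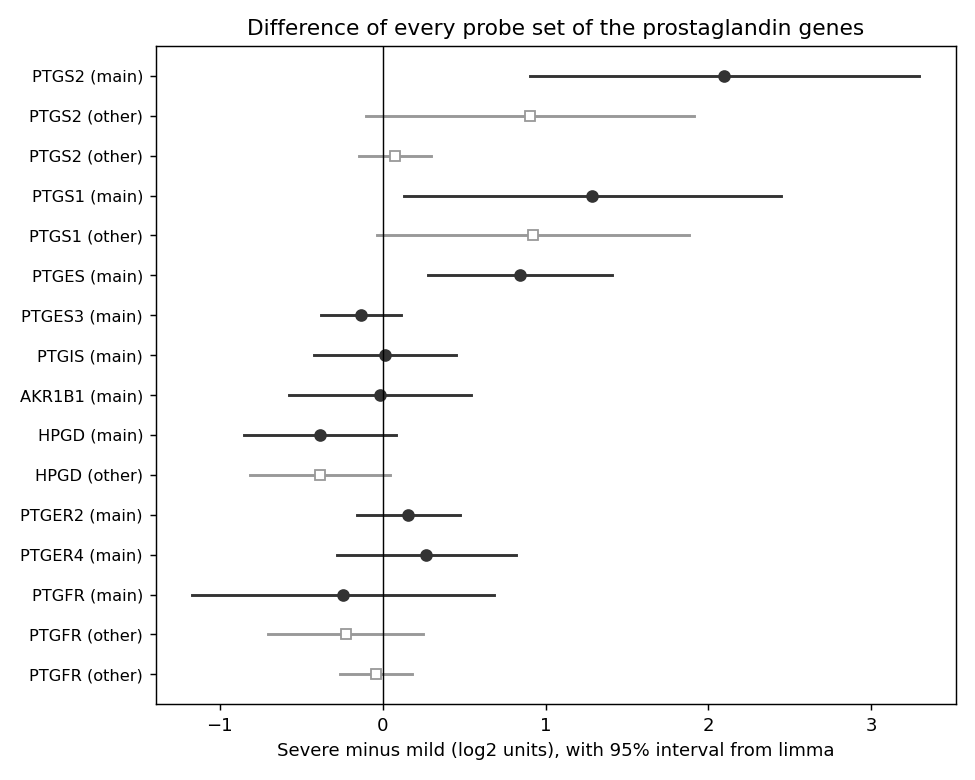
Difference between severe and mild cows in log2 units (horizontal axis, positive where severe cows are higher) for all 16 probe sets of the 10 genes, with 95% intervals from limma. Filled circles are main probe sets and open squares are other probe sets of the same gene. The intervals of the main probe sets of PTGS2, PTGS1 and PTGES lie above 0, and those of the other 7 genes include 0. The interval of every open square includes 0, also for PTGS2 and PTGS1.

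HPGD, the enzyme that inactivates prostaglandins by oxidising them, had low signals in both groups. In its main probe set (Entrez gene 512259) the lowest, median and highest values were 5.28, 5.67 and 5.82 in severe cows, and the mild cows had 5.75, 6.04, 6.07, 5.38 and 6.86. Severe cows lay close together, with an SD of 0.19 against 0.55 in mild cows, where mild 5 stood highest. The log2 difference was -0.39 ± 0.21 (SE, exact permutation p = 0.123, adjusted limma p of 0.470), and 0 of 6 severe cows exceeded the mild mean. The second probe set gave -0.38 ± 0.20 (SE), with mild 5 again highest at 6.24, though it was dim in all severe cows and 4 mild cows. Without mild 5 the difference of the main probe set was -0.18, and without mild 4 it was -0.55.

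The receptors showed smaller differences. PTGER4 (Entrez gene 282331), the EP4 receptor, which raises cyclic AMP when it binds prostaglandin E, had a lowest value of 8.56, a median of 9.40 and a highest value of 10.07 in severe cows. Mild cows had 9.24, 8.46, 9.10, 9.65 and 8.98. The groups overlapped over most of their range, and the log2 difference was 0.27 ± 0.25 (SE, exact permutation p = 0.355), or -0.03 without mild 2 and severe 5 together. PTGER2 (Entrez gene 282329), the EP2 receptor, which signals in the same way, was dim in all 11 cows, at 3.43 to 4.36 in severe and 3.38 to 3.71 in mild cows, and no difference can be read at such signals.

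PTGFR, the FP receptor for prostaglandin F, which raises intracellular calcium, was close to the dim limit. Its main probe set (Entrez gene 282020) had a lowest value of 4.87, a median of 5.80 and a highest value of 6.46 in severe cows, and mild cows had 5.53, 6.08, 5.61, 7.56 and 4.98. Mild 4 was the highest of all 11 cows. The log2 difference of -0.24 ± 0.42 (SE, exact permutation p = 0.658) turned to 0.16 without that cow. The other PTGFR probe sets were dim in every cow and differed by -0.23 and -0.04.

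Set against each other, the prostaglandin E arm had differences of 0.84 log2 units in PTGES, 0.27 in PTGER4 and -0.13 in PTGES3, and its remaining gene, PTGER2, was too dim to be read. The prostaglandin F arm of AKR1B1 and PTGFR had 2 negative differences, -0.02 and -0.24. Neither sign was stable, AKR1B1 being at 0.16 without severe 5 and PTGFR at 0.16 without mild 4. In the E arm PTGER4 was at -0.03 without mild 2 and severe 5 together. Within each cow, PTGES minus AKR1B1 averaged -2.06 ± 0.89 (SD, n = 6) in severe cows, against -2.92 ± 0.65 (SD, n = 5) in mild cows. Only severe 5 and severe 6 lay above the highest mild cow, so the groups overlapped in this contrast of the synthases. PTGER4 minus PTGFR, a contrast of the receptors added after the values were seen, averaged 3.64 ± 0.67 in severe and 3.13 ± 0.85 in mild cows, with overlap as well. The difference between the groups in this contrast, 0.51, was 0.25 without mild 4, and that of PTGES minus AKR1B1, 0.86, was 0.55 without mild 2 and severe 5 together. A difference between probe sets within a cow has no meaning as a ratio of transcripts and is used only to compare cows, and neither contrast was tested.

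Set against HPGD by main probe sets, 2 of the 6 synthesis genes, PTGS2 and PTGES, separated the groups without overlap, and the other 4 did not. PTGS2 minus HPGD ran from 2.23 to 5.28 in severe cows and from -0.28 to 2.08 in mild cows, with means of 3.41 ± 1.07 (SD, n = 6) and 0.93 ± 1.08 (SD, n = 5). With the second HPGD probe set, mostly dim, mild 3 (PTGS2 8.00, HPGD 5.14) lay just above severe 6 (7.88 and 5.06), so the groups overlapped. With the dimmer second PTGS2 probe set and the main one of HPGD, severe 3 (4.07 and 5.28) lay below mild 3 (5.54 and 6.07). PTGES minus HPGD, a pair chosen after the values were seen, ran from 1.70 to 2.66 in severe cows and from 0.74 to 1.44 in mild cows. Its means were 2.21 ± 0.37 and 0.98 ± 0.28, a difference of 1.23 log2 units. This difference stayed between 1.14 and 1.34 over all single omissions and the other settings tried. It follows from the differences of its genes, 0.84 in PTGES and -0.39 in HPGD, so its stability is no further evidence. PTGS1 minus HPGD overlapped, at 0.12 to 3.77 in severe and -0.57 to 1.19 in mild cows. AKR1B1 minus HPGD overlapped too, at 3.40 to 4.95 in severe and 2.67 to 4.51 in mild cows. PTGS2 minus PTGS1 averaged 1.65 ± 1.91 in severe and 0.84 ± 0.74 in mild cows, with overlap, and its difference between the groups, 0.81, was 0.36 without severe 4. PTGER4 minus PTGER2 is not read, since PTGER2 was dim in every cow. These contrasts carry no test, because they were built from members whose differences were already known, and how many pairs of genes on the array separate the groups in this way was not computed.

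**Figure D4:**
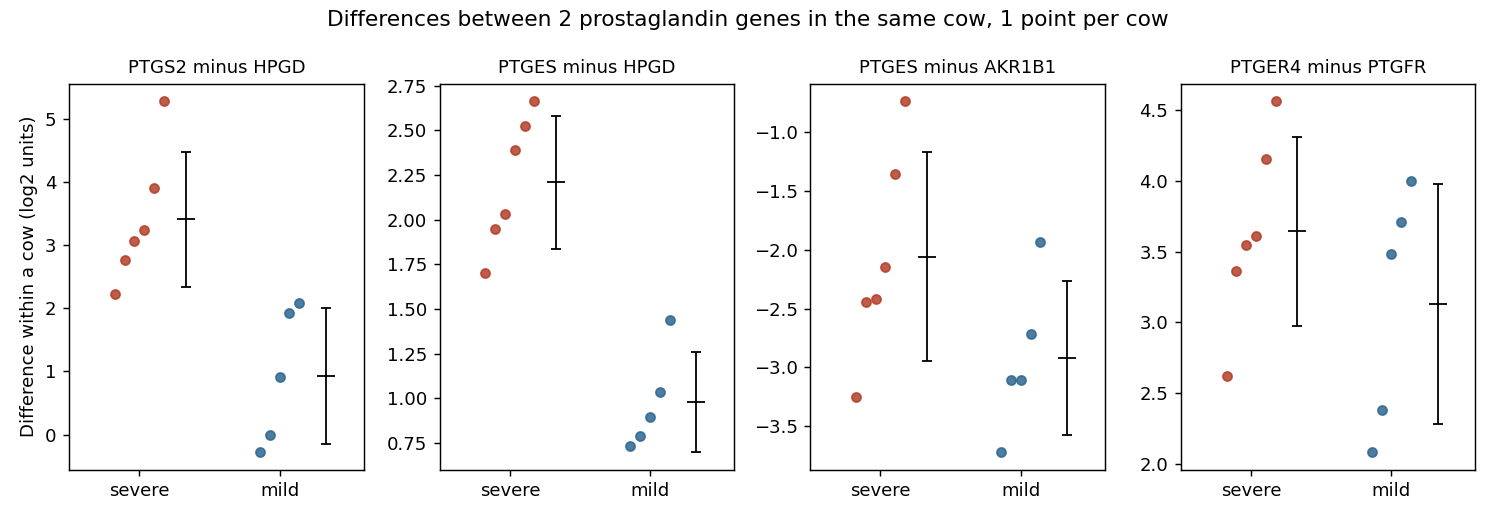
Difference between the main probe sets of 2 genes in the same cow, in log2 units (vertical axis, a scale of its own in each panel), for 6 severe cows (red, left) and 5 mild cows (blue, right), with the mean ± SD in black. In the panels of PTGS2 minus HPGD and PTGES minus HPGD all 6 severe cows lie above all 5 mild cows, and in the panels of PTGES minus AKR1B1 and PTGER4 minus PTGFR the groups overlap.

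Over the 45 pairs of members, with the group means removed, 0 passed an adjusted p of 0.05 in an exact permutation of cows within groups, and 6 had an unadjusted p under 0.05. PTGS1 and PTGER4 had the smallest p, with a Pearson r of 0.78 (exact permutation p = 0.00404, adjusted p = 0.182) and a Spearman rho of 0.63 (exact permutation p = 0.0591, adjusted p = 0.718). Without severe 1 and severe 5 this r was 0.40, so the relation rests largely on those cows. PTGES and HPGD had an r of 0.72 (exact permutation p = 0.0340, adjusted p = 0.317) and a rho of 0.47 (exact permutation p = 0.168, adjusted p = 0.806). Their r was 0.40 without mild 4 and severe 3. Mild 4 was lowest and mild 5 highest among mild cows in both genes, and the within-cow difference of this pair had a smaller SD in each group than PTGES alone. Against HPGD alone, the SD of the pair was larger in severe cows, 0.37 against 0.19, and smaller in mild cows, 0.28 against 0.55.

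The genes most like a member across cows were then ranked by Pearson r of deviations from the group mean over 11 cows, among 7134 genes that were not dim. For PTGS2 the 5 highest were FMOD, a small matrix proteoglycan (r = 0.91), CYB5R1, a cytochrome b5 reductase (0.87), LAP, the bovine lingual antimicrobial peptide (0.83), S100A14, a calcium-binding protein of epithelia (0.81), and SPON1, an extracellular matrix protein (0.81). For HPGD they were ASAP1, a regulator of ARF GTPases (0.92), KRT5, a basal keratin (0.89), RPS27L (0.87), VAC14 (0.86) and NNAT (0.85). The same ranking for PTGS1 and PTGES was added after their values were seen. For PTGS1 it gave CORO1A, an actin-binding protein of leukocytes (0.95), ATP6V1E1, a subunit of the proton pump (0.94), TSFM (0.93), HK1, a hexokinase (0.93), and SPCS3, a subunit of the signal peptidase (0.92). For PTGES it gave CLU, the secreted chaperone clusterin (0.91), FAM32A (0.89), TRIB1, a pseudokinase (0.89), RAP2B (0.89) and NEK6 (0.88). They are the top of a ranking of many genes over 11 points, so the r values are a description only. The ranking uses deviations from the group mean, so it does not show a shared group difference. Of the 5 for PTGS2, LAP and S100A14 were higher in severe cows by 1.63 and 0.72 log2 units. FMOD, CYB5R1 and SPON1 differed by -0.03, 0.12 and -0.26. CORO1A, like PTGS1, was lowest of the severe cows in severe 1 (7.22) and highest in severe 5 (10.20). No r without these cows was computed here.

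Markers of immune cells were higher by point estimate in severe cows, 0 of them after adjustment. All 6 measured neutrophil markers were higher, each with an unadjusted limma p under 0.05, a limit at which 8.45% of all genes were higher. Their mean signal per cow was 7.32 to 10.10 in severe and 5.31 to 6.73 in mild cows. Only TREM1 was dim on average, but CXCR1, IL1R2 and TREM1 were dim in all 5 mild cows. IL1R2 and TREM1 were also dim in 2 severe cows, so the sizes of these differences are not exact. All 8 macrophage markers were higher, 4 of them at that limit, with a mean signal of 8.26 to 10.41 in severe and 7.87 to 9.29 in mild cows. The 8 T and NK cell markers were all higher, 7 of them at that limit, with a mean signal of 6.42 to 7.70 in severe and 5.65 to 6.77 in mild cows. Severe 4, highest in PTGS2, was also highest in the neutrophil and macrophage lists, at 10.10 and 10.41. Severe 1, which followed it in PTGS2, had the lowest neutrophil level of the severe cows, 7.32.

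The severe cows with low PTGS1 were low in the macrophage and the T and NK cell lists. Severe 1 and severe 3 had the lowest macrophage levels of the severe cows, 8.66 and 8.26, and the lowest T and NK cell levels, 6.42 and 6.48. In the neutrophil list severe 3, at 7.96, lay above severe 2, at 7.69, a cow with high PTGS1. Severe 4, also with high PTGS1, had a T and NK cell level of 6.78, close to the 6.77 of mild 3. Severe 5, with the highest PTGS1 signal, had a macrophage level of 10.15, a T and NK cell level of 7.67 and the lowest epithelial level of all cows, 6.91. The part of these cells in the differences of PTGS1, PTGS2 and PTGES was not tested.

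Of the other lists, 9 epithelial markers held 4 higher and 5 lower, 0 of them at the unadjusted limit, with a mean signal of 6.91 to 8.31 in severe and 7.37 to 8.24 in mild cows. KRT8, dim in every cow, is counted among the higher ones. The 9 stromal markers held 5 higher and 4 lower, 1 at the limit in each direction. Those were PDGFRA, a tyrosine kinase receptor of mesenchymal cells, at 0.97, and the homeobox gene HOXA10 at -0.71. Their mean signal was 10.86 to 11.20 in severe and 10.59 to 11.24 in mild cows. The 7 smooth muscle markers held 1 higher and 6 lower, 0 at the limit. The 6 endothelial markers held 4 higher and 2 lower, and KDR, dim in all cows, was the 1 at the limit, with a mean signal of the list of 7.41 to 7.96 in severe and 7.27 to 7.86 in mild cows.

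The rest of the pathway was read from 5 further lists. Of 20 genes listed for the release of arachidonic acid 8 were measured, 6 higher and 2 lower, and 0 had an unadjusted limma p under 0.05. ANXA1, annexin A1, which restrains phospholipase A2, had the smallest p there, at 12.19 ± 0.41 in severe and 11.92 ± 0.14 in mild cows, higher by 0.27 ± 0.18 log2 units (SE). PLAA, an activator of phospholipase A2, differed by 0.08 ± 0.08 (SE). The median of the list was 0.03.

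Of 17 listed synthases, breakdown enzymes and transporters beside the members, 10 were measured, 6 higher and 4 lower. At the unadjusted limit 1 was higher and 2 were lower, and 0 passed after adjustment. AKR1C4, of a family of aldo-keto reductases that act on steroids and prostaglandins, had a lowest value of 4.94, a median of 7.21 and a highest value of 8.03 in severe cows, against 4.69, 4.54, 5.44, 5.66 and 6.03 in mild cows. All severe cows but severe 1 lay above every mild cow, and the log2 difference was 1.68 ± 0.52 (SE, adjusted limma p of 0.306). The other 5 AKR1C4 probe sets were all dim on average, at 3.58 to 5.08, and their differences of between -0.06 and 0.24 are not read. Genes of this family are near-identical in sequence, so which of them this signal belongs to is uncertain. The mild signals of AKR1C4 were dim in 3 of 5 cows, so the size of its difference is not exact.

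PRXL2B, described in the mouse as a synthase that reduces prostaglandin H to prostaglandin F, had a lowest value of 8.41, a median of 8.49 and a highest value of 9.15 in severe cows, and 9.46, 9.51, 9.10, 9.33 and 8.88 in mild cows. Severe 2, 4, 5 and 6 lay below every mild cow, the same 4 cows in which PTGS1 and PTGES lay above every mild cow. Its log2 difference was -0.57 ± 0.17 (SE, adjusted limma p of 0.301), and it kept an unadjusted limma p under 0.05 in each single omission. PTGR2, a reductase that acts on the keto forms of prostaglandins after HPGD, differed by -0.22 ± 0.09 (SE, adjusted limma p of 0.356), and by -0.34 ± 0.14 (SE) in its second probe set. It left the unadjusted limit in 5 of 11 single omissions, those of mild 2, mild 4, severe 2, severe 4 and severe 6.

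Of 10 further receptors 4 were measured, 2 higher and 2 lower, with 0 at the unadjusted limit. As 3 of them, PTGER3, PTGDR2 and PPARG, were dim on average, the signs of this list are not read. PPARD, a nuclear receptor that fatty acids and prostacyclin analogs can activate, differed by 0.21 ± 0.12 (SE), its other probe sets lying near the floor at -0.15 and -0.16. PTGER3, the EP3 receptor, differed by -0.12 ± 0.14 (SE) at signals that were dim in most cows.

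In the leukotriene branch, the other main route of arachidonic acid, 7 of 16 listed genes were measured, 4 higher and 3 lower. Of these 5 were dim on average, ALOX5AP and ALOX5 among them, so the signs of the list are not read. At the unadjusted limit 1 was higher. That was ALOX5AP, which presents arachidonic acid to 5-lipoxygenase, at 5.74 ± 0.88 (SD, n = 6) in severe cows, against 4.91 ± 0.21 (SD, n = 5) in mild cows. The log2 difference of 0.83 ± 0.36 (SE, adjusted limma p of 0.371) was 0.55 without severe 4, the highest cow at 7.17. All mild cows and 3 severe cows were dim, so the size of this difference is not exact. ALOX5AP left the unadjusted limit in 7 of 11 single omissions, those of mild 1, 2, 3 and 4 and of severe 4, 5 and 6. ALOX5 itself was dim on average too and differed by -0.0049.

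Of 7 listed hormone receptors 5 were measured, and 3 of them, ESR1, ESR2 and PGR, were dim on average, so the signs of the list, all negative with a median of -0.13, are not read. At the unadjusted limit 1 was lower. ESR1, the estrogen receptor alpha, was dim in all severe cows and 4 mild cows, at 4.53 ± 0.37 and 5.14 ± 0.40, a log2 difference of -0.61 ± 0.21 (SE, adjusted limma p of 0.312). OXTR, the oxytocin receptor through which oxytocin releases prostaglandin F from the endometrium, was at 8.95 ± 0.26 (SD) in severe cows against 9.05 ± 0.44 (SD) in mild cows, and it was named after its value was seen.

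**Figure D5:**
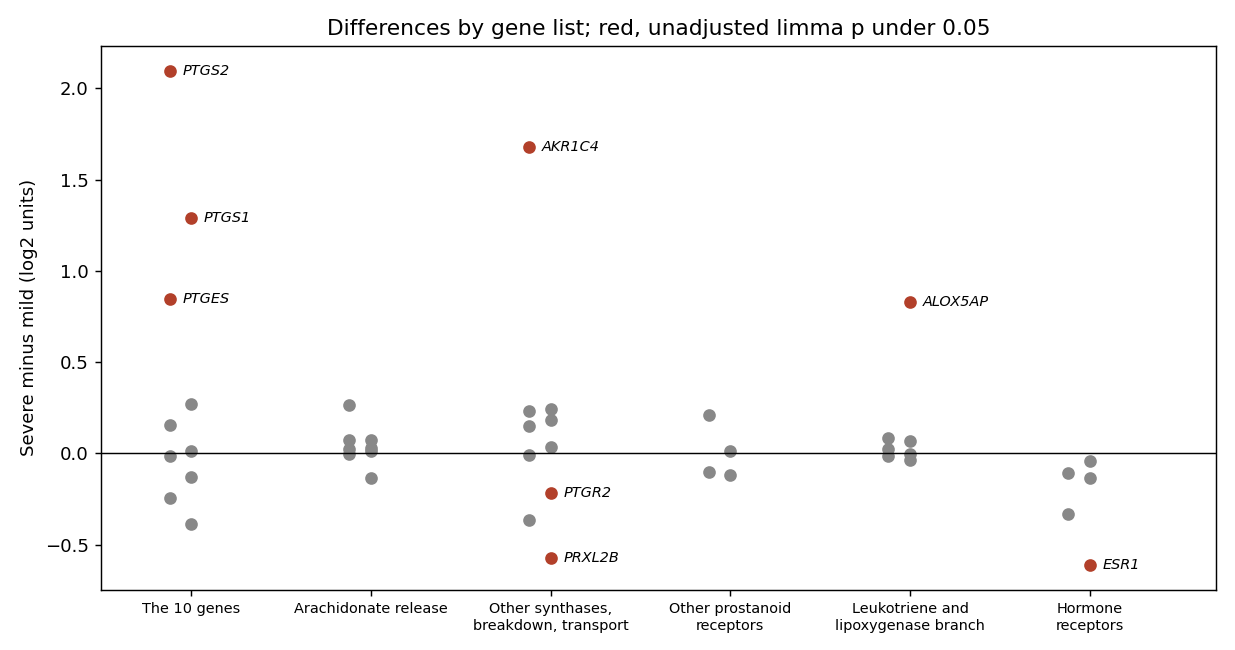
Difference between severe and mild cows in log2 units (vertical axis, positive where severe cows are higher) for the 10 genes and for the measured genes of 5 further lists, 1 point per gene at its main probe set. Named red points have an unadjusted limma p under 0.05, namely PTGS2, PTGS1, PTGES, AKR1C4 and ALOX5AP above 0 and PTGR2, PRXL2B and ESR1 below 0, and none of them passed after adjustment over all probe sets.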

How the data were processed

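The deposited values are log2 values that the authors made with RMA, per the submitters' processing notes. RMA removes background, forces all arrays to a like distribution and combines the probes of a set, so a shift of the whole transcriptome is not visible. The scale was read from the values. No RMA version and no filter is named in those notes.

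Of 24128 probe sets 112 controls were left out. In the platform annotation, dated 2016, 13292 of the rest had 1 gene symbol, 86 had several and 10638 were not listed. Entrez numbers matched 13263 to a RefSeq table of ARS-UCD2.0, used for names only, and 0 were renamed. The severe minus mild difference of each of 24016 probe sets was tested, two-sided, with lmFit and eBayes of limma 3.58.1 (R 4.3.3). P-values were adjusted by Benjamini-Hochberg over all of them, with 0.05 as the threshold. Correlations were permuted over all 86400 orders of cows within groups. Array number limits the precision, as arrays have no read depth. The procedure was tested on simulated data.

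Members and lists were chosen with earlier results of these data known. The genes named are the members and, in each pathway list, up to 4 genes at an unadjusted p under 0.05, or the 2 with the smallest p, and for PTGS2 and HPGD the 5 most alike. Alternatives were a filter on the dimmest 40%, array weights, a trended and a robust eBayes, a second quantile normalization, 1 probe set per gene, other probe sets, an exact permutation and each cow left out. The contrasts of each synthesis gene with HPGD beside PTGS2 were added after seeing the data. The omission of mild 2 and severe 5 together, the arrays farthest from the median array in their groups, was added after seeing the data. Cows were blocked before calving and allocated at random, per the labels, but the blocks are not given per animal and entered no test, and no scan date is given. Replicate numbers follow sample order and only name cows. Figures were drawn with Python 3.11.15 and matplotlib 3.10.9.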

Additional observations from a re-analysis of the deposited data

Results flagged for a closer look

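In 6 of 90 groups of cows, where chance flags about 1 in 20, a single cow stood apart from the rest of its group by Dixon's test. HPGD in its second probe set had mild 5 at 6.24, the other mild cows being at 5.06 to 5.32, and severe 3 at 4.63, the other severe cows being at 4.99 to 5.21. PTGER2 had severe 5 at 4.36, the other severe cows being at 3.43 to 3.72. PTGFR in one of its dim probe sets had severe 5 at 4.27, the others being at 3.81 to 3.96, and mild 1 at 3.70, the others being at 3.99 to 4.10. FMOD, the gene most like PTGS2, had severe 4 at 10.35, the other severe cows being at 9.25 to 9.52. All of these but FMOD and HPGD in mild 5 are dim signals.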

How the results depend on the processing

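The number of members higher at the unadjusted limit was 3 and ran from 2 to 3 over single omissions, that of members lower from 0 to 1 (1 without mild 4, where HPGD had that p, and 1 without mild 5, where PTGES3 had it), and that of members past the adjusted threshold stayed at 0 in each setting run. Members without overlap numbered 0 to 1, with 1 without mild 3, mild 5 or severe 6. Probe sets past the adjusted threshold numbered 0 to 16 over single omissions (16 without severe 1, 2 without severe 3), and those at the unadjusted limit 2213 to 3794, or 1421 with 1 probe set per gene, where fewer features were tested. The sign changed for 5 members. PTGIS was at -0.058 with array weights, -0.0016 after a second quantile normalization, -0.053 without mild 2 and severe 5 together and -0.091 to 0.14 over single omissions. AKR1B1 ran from -0.16 to 0.16 over single omissions and was at 0.23 without mild 2 and severe 5 together, where PTGER2 was at -0.017 and PTGER4 at -0.032. PTGFR ran from -0.49 to 0.16. The cause was not tested. PTGS1 was at 0.84 without mild 2 and severe 5 together, past the unadjusted limit no longer. Of 339 recomputed differences of named genes, 18 changed sign, 23 lost and 3 gained an unadjusted p under 0.05. The within-cow differences between members moved by less than 1 SD, an SD as wide as 1.91 in PTGS2 minus PTGS1, which ran from 0.36 to 1.25 over single omissions. PTGER4 minus PTGER2 was at 0.11, at 0.0038 without mild 2 and at -0.015 without mild 2 and severe 5 together. No paired analysis was possible because the replicate numbers follow sample order and the blocks are not given per cow. The number of arrays limits precision, and dim signals compress differences of HPGD, PTGER2, PTGFR, ALOX5AP and ESR1.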
